A study of Mus musculus with 4 samples.

Results

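The chromatin around 3 SOX transcription factor genes, Sox2, Sox9 and Sox10, is described here in mouse salivary gland epithelial progenitor cells, from maps of the transcription factor p63 and of the histone mark H3K27ac. The members are all called peaks whose midpoint lies in 1 of 3 windows of the mm9 genome: chr3:34400000-35000000 around Sox2 (0.6 Mb), chr11:110900000-113200000 around Sox9 and its gene desert (2.3 Mb) and chr15:78900000-79100000 around Sox10 (0.2 Mb). The windows held 13 of the 4130 p63 peaks of the study and 308 of its 183757 H3K27ac peaks. The windows are set by gene positions and not by a threshold on the peaks, but genes and windows were chosen with earlier results of these data known. Gene positions were given to the nearest 1 kb: about 34.549 Mb for Sox2, 112.644 to 112.649 Mb for Sox9 and about 78.985 Mb for Sox10.

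The cells were primary epithelial progenitors from the salivary gland of adult mice, 12 weeks old, wild-type for p63. A p63 ChIP library (antibody 4A4) and an H3K27ac ChIP library were each set against an input library without antibody, which makes 4 groups of 1 library and 2 peak lists. Whether the cells came from 1 animal, from pooled animals or from 1 culture is not given in the sources used here. With 1 library a group there was no test between groups, the depth behind the lists is unknown, and all intervals below cover counting error only, with each peak taken as independent. No RNA was measured, so the labelled cell type could not be checked against its markers and nothing here says how strongly a gene was transcribed.

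SOX proteins bind DNA through a domain shared with the sex-determining factor SRY and act with partner factors to open and hold regulatory elements of progenitor cells. Sox2 belongs to the SOXB1 group and is known for pluripotency and for progenitors of the foregut, the tongue and the salivary gland. Sox9 and Sox10 belong to the SOXE group: Sox9 is known in cartilage, testis and the branching tips of glands, and Sox10 in neural crest, glia and the secretory and myoepithelial cells of glands. Sox9 lies next to long stretches with few protein-coding genes, in which distant enhancers of Sox9 are known. Sox2 lies within the non-coding transcript Sox2ot. Acetylation of lysine 27 of histone H3 marks active promoters and enhancers. p63, a member of the p53 family, marks the basal cells of stratified and glandular epithelia.

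The 3 genes differed in the H3K27ac at their given positions, an interval for Sox9 and 1 point each for Sox2 and Sox10. Sox9 was covered by a nearly continuous block of H3K27ac, Sox2 had 1 narrow peak, and the given position of Sox10 had narrow peaks only, with more H3K27ac than the median stretch of the genome but less than the rest of its own window. No p63 peak lay within 10 kb of any of the 3 genes. The median window of 200 kb in the genome also held 0 p63 peaks, so this absence does not set the genes apart.

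At Sox9, 7 H3K27ac peaks at most 1000 bases apart formed a domain at chr11:112642046-112650173. The domain spanned 8.128 kb, of which the peaks covered 6.705 kb. It started before the lower end of the gene and ended past its upper end, with both positions known to 1 kb. The leading peaks were chr11:112642046-112643132 (1087 bases), chr11:112643564-112645583 (2020 bases), which holds the lower end of the gene, and chr11:112645710-112647434 (1725 bases). The peaks after them were narrower, at 466, 440, 628 and 339 bases. The longest gap between neighbouring peaks of the domain was 431 bases. Within 10 kb of Sox9, 7038 of 25 kb were covered (28.2%), and the gene's own domain made up nearly all of that. Across the genome, cut into stretches of the same length, the median was 180 bases covered, and 0.294% of 102684 stretches had at least as much as Sox9. Here and below, such stretches were cut without regard to genes, so these shares give no rank among genes or promoters. Among all 24666 H3K27ac domains, 0.596% had at least as many bases covered as the domain at Sox9. The p63 peak nearest to this domain was 268.05 kb away.

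At Sox2, the peak nearest to the gene position was chr3:34548598-34548889. Its width was 292 bases and its midpoint lay 257 bases below the position, which is less than the rounding of the position. It was the only H3K27ac peak within 10 kb, so 292 of 20 kb were covered (1.46%). In 34.4% of 128363 genome stretches of that length at least as many bases were covered, and the median was 151. The coverage next to Sox2 was thus above the median stretch but not uncommon. The next peaks were chr3:34538793-34538961 (169 bases), 10.1 kb below, and chr3:34570563-34570712 (150 bases), 21.6 kb above.

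Because the 1 called peak lies close to the given gene position, the promoter of Sox2 is shown. Of the 3 genes, 1 (Sox2) had an entry in the RefSeq promoter table used here, which is on GRCm38.p6 and not on mm9. It is therefore not known whether the peak covers any of these bases, or which. The 250 bases before the start of the gene, on the forward strand (GRCm38.p6 chr3:34649745-34649994), are printed with matches of CNNG, any 6 bases and CNNG in capitals. This is the spaced C and G pattern of the motif bound by the p53 family.
Sox2 promoter: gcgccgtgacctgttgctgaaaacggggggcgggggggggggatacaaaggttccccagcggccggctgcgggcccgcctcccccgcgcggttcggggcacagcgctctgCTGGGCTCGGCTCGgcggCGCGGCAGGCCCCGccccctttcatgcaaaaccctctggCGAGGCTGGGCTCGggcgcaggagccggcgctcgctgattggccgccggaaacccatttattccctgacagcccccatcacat
G and C made up 72% of these bases, against a median of 52.4% over 32851 promoters. The pattern was found at 3 places, searched on both strands, and 63.5% of all promoters hold at least 1 match, so its presence does not set this promoter apart. The stricter form of CATG, any 6 bases and CATG (0.490% of promoters) was not found in these letters, on either strand. Every match of this form is also a match of the looser form. ACAAT (27.7% of promoters), the only SOX word searched, was also not found on either strand. Other forms of SOX site were not searched, so their absence is not shown. No p63 peak lay within 100 kb of Sox2, and the median window of 200 kb in the genome also held 0.

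At Sox10, 4 H3K27ac peaks lay within 10 kb of the given position. They were chr15:78975536-78975795 (260 bases), chr15:78976264-78976445 (182 bases), chr15:78983079-78983228 (150 bases) and chr15:78986342-78986527 (186 bases). The last pair flanked the position at distances of 1.85 kb below and 1.43 kb above, and 150 bases is the smallest width in the H3K27ac list. In all 801 of 20 kb were covered (4.00%), and 11.9% of genome stretches of that length had at least as much. Between chr15:78975796 and 79002404, a stretch of 26.6 kb chosen after its values were seen, no H3K27ac peak reached the list's median width of 191 bases. The 3 peaks inside it added up to 518 bases, or 1.95% of the stretch, close to the 1.87% of all chromosomes and below the 9.87% of the Sox10 window. Sox10 is transcribed toward lower coordinates, and which end of the gene the position marks is not given in the sources used here. With the position moved by 10 kb the coverage was 2.22% toward higher and 12.5% toward lower coordinates.

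**Figure D1:**
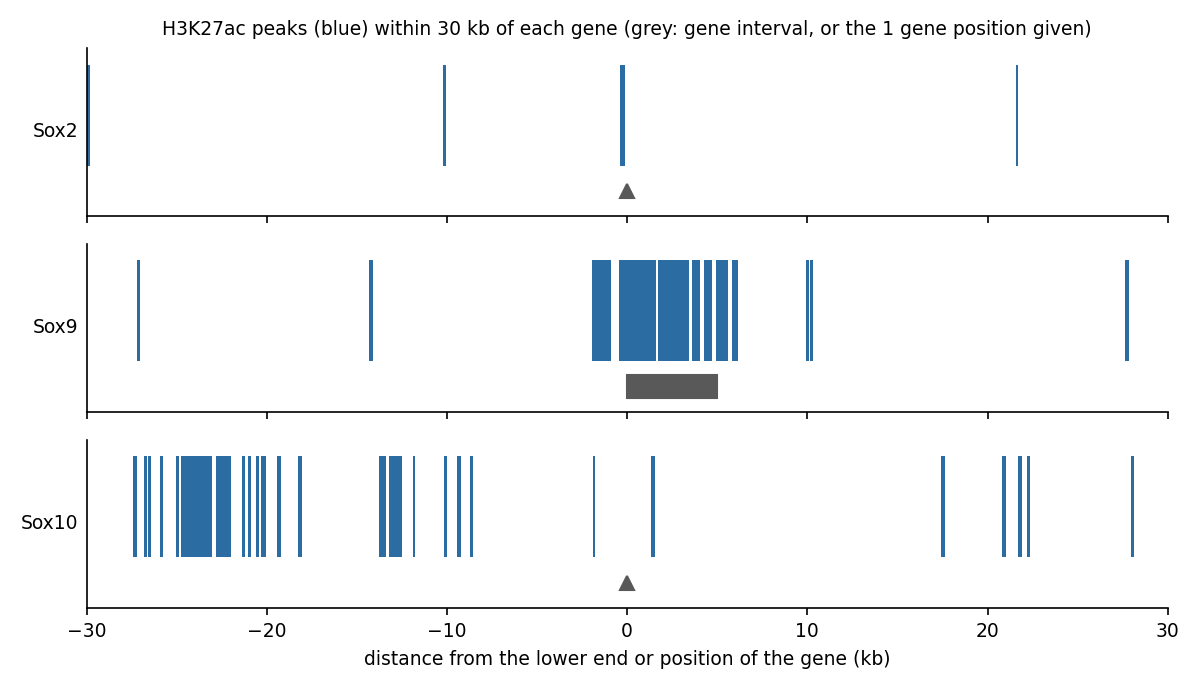
H3K27ac peaks (blue bars, drawn to scale) within 30 kb of Sox2, Sox9 and Sox10, by distance in kb from the lower end of the gene or its given position (grey bar or triangle); the vertical axis has no scale. Sox9 lies under a block of 7 peaks, Sox2 has 1 peak of 292 bases at its position, and Sox10 has 1 narrow peak on each side within 2 kb and a denser group at lower coordinates.

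Counted over the whole windows, Sox10 had the densest H3K27ac and Sox2 the sparsest. The Sox10 window held 61 H3K27ac peaks, or 305 per Mb (exact Poisson 95% interval 233 to 392), the Sox9 window 211, or 91.7 per Mb (interval 79.8 to 105), and the Sox2 window 36, or 60 per Mb (interval 42.0 to 83.1). The density at Sox10 was 5.08 times that at Sox2 (exact 95% interval 3.31 to 7.90) and 3.32 times that at Sox9 (interval 2.46 to 4.44), and that at Sox9 was 1.53 times that at Sox2 (interval 1.07 to 2.24). None of these 3 intervals includes equal density, but with peaks at most 1000 bases apart joined, Sox9 over Sox2 was 1.15 (interval 0.787 to 1.74), which does. Joined in this way, Sox10 over Sox2 was 2.91 (interval 1.73 to 4.88) and Sox10 over Sox9 2.52 (interval 1.66 to 3.72). Runs of such close peaks held 65.6% of the peaks at Sox10, 44.5% at Sox9 and 13.9% at Sox2, against 37.7% of all H3K27ac peaks. Intervals that take each peak as independent may therefore be too narrow. Against their own chromosomes, Sox10 stood at 3.77 times the 80.9 peaks per Mb of chromosome 15. Sox9 and Sox2 were close to theirs, at 0.875 times the 105 of chromosome 11 and 0.940 times the 63.8 of chromosome 3. Over all chromosomes the density was 71.6 per Mb.

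Set beside all windows of equal size, Sox10 stood near the top and the other genes did not. At least 61 H3K27ac peaks were found in 1.02% of 12817 windows of 200 kb, whose median was 10. At least 211 were found in 29.4% of 1093 windows of 2300 kb (median 151), and at least 36 in 49.9% of 4255 windows of 600 kb (median 35). In number of H3K27ac peaks the Sox2 window was thus close to the median window. H3K27ac covered 9.87% of the Sox10 window, 2.86% of the Sox9 window and 1.18% of the Sox2 window, against 1.87% of all chromosomes. Their own chromosomes had 2.21% (chromosome 15), 2.96% (chromosome 11) and 1.62% (chromosome 3), so Sox9 was above the whole genome but just below its chromosome.

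**Figure D2:**
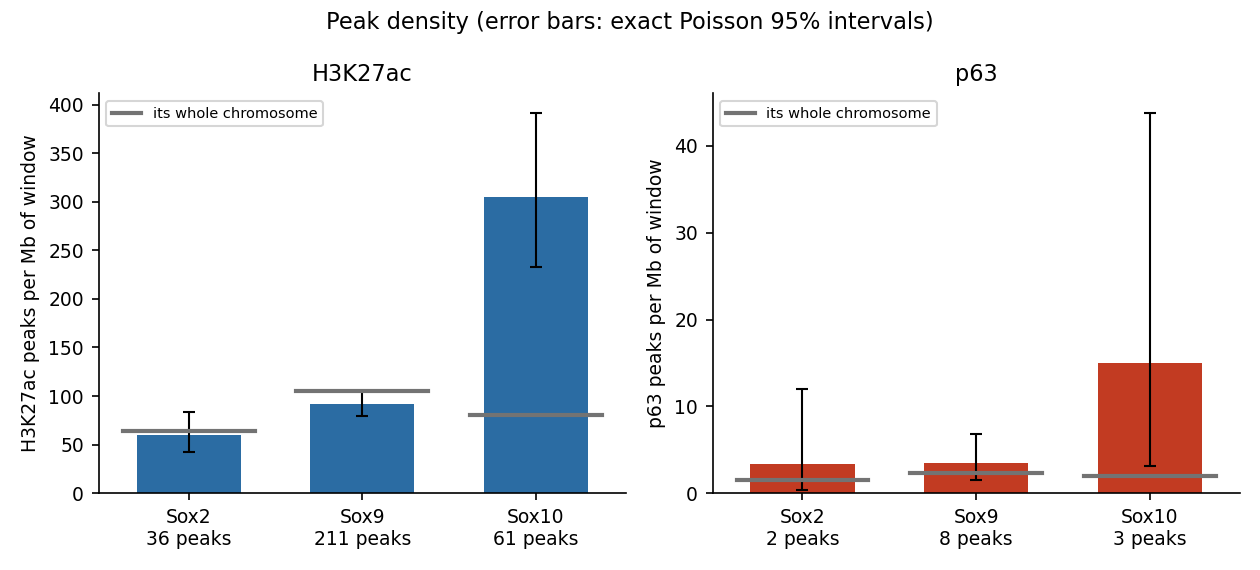
Peaks per Mb of each window for H3K27ac (left) and p63 (right), with exact Poisson 95% intervals as error bars and the density of the whole chromosome as a grey line. For H3K27ac the Sox10 bar (305 per Mb) stands above its chromosome and the other bars close to theirs, while the p63 intervals, from 13 peaks in all, overlap one another.

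Windows of unequal size mix gene and desert, so the same distance was also taken around each gene, 100 kb on either side and cut at the window's edge. The order was unchanged: 59 H3K27ac peaks at Sox10 (319 per Mb, interval 243 to 411), 25 at Sox9 (122 per Mb, interval 78.9 to 180) and 11 at Sox2 (55.0 per Mb, interval 27.5 to 98.4). The ratio of Sox10 to Sox9 was then 2.62 (interval 1.61 to 4.36) and that of Sox9 to Sox2 2.22 (interval 1.05 to 4.99). At Sox10, 4 of these 59 peaks lay within 10 kb of the given gene position, in 20 of the 185 kb taken. With so short a part near the position, most peaks would lie farther away in any case.

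By distance, Sox10 had its H3K27ac on the side of lower coordinates. That side held 41 peaks in 85 kb (482 per Mb) and the other side 20 in 115 kb (174 per Mb), a ratio of high to low side of 0.361 (exact 95% interval 0.200 to 0.630). This ratio was not recomputed with neighbouring peaks joined. Density was highest from 10 to 50 kb below the position, with 26 peaks (650 per Mb, interval 425 to 952), against 3 peaks (300 per Mb, interval 61.9 to 877) in the 10 kb next to it. From 10 to 50 kb above it there were 8 (200 per Mb, interval 86.3 to 394). The widest peaks were chr15:78938136-78940333 (2198 bases), 45.8 kb below, chr15:78960230-78961990 (1761 bases), 23.9 kb below, and chr15:78940477-78941444 (968 bases). The fullest domain, chr15:78957603-78966962, held 13 peaks with 4.661 kb covered, and the next, chr15:78938136-78942252, held 4 peaks with 3.551 kb covered. Of all domains, 1.45% and 2.72% had at least as many bases covered. In the order of the GRCm38 gene table, the protein-coding genes on that side are Polr2f, a subunit of RNA polymerases, 1700088E04Rik, Micall1, which acts in endosome traffic, Eif3l, a translation initiation factor, and Ankrd54. On the other side they are Pick1, Slc16a8 and Baiap2l2. No gene was placed on mm9, so no peak is assigned to Sox10 or to a neighbour, and the share of this H3K27ac that belongs to each cannot be told apart.

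Sox2 showed no such side or distance. There were 9 H3K27ac peaks in 149 kb below the gene (60.4 per Mb) and 27 in 451 kb above it (59.9 per Mb), a ratio of 0.991 (interval 0.452 to 2.40). In the classes from 10 kb outward the density ran from 25 per Mb (10 to 50 kb above, 1 peak) to 80.0 per Mb (50 to 100 kb above, 4 peaks), with overlapping intervals. The widest of its peaks was chr3:34612209-34612533, at 325 bases. Of the 36 peaks 0 were at least 1000 bases wide, against 1.91% of all H3K27ac peaks, and 11 (30.6%) had the smallest width in the list, against 21.7% of all. The window held 2 domains, chr3:34611291-34612533 with 3 peaks and 649 bases covered and chr3:34943462-34944135 with 2 peaks and 365 bases covered. Of all domains, 47.0% and 82.6% had at least as many bases covered. The longest stretch without H3K27ac, chr3:34623918-34675639, was 51.7 kb and held 1 p63 peak. Of all gaps between H3K27ac peaks, 5.08% were at least as long.

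Sox9 had a long, thinly marked side and a short, densely marked one. Sox9 is transcribed toward higher coordinates, so the low side is upstream. Upstream, 93 H3K27ac peaks lay in 1.744 Mb (53.3 per Mb). Downstream, 114 lay in 0.551 Mb (207 per Mb), 3.88 times the upstream density (exact 95% interval 2.92 to 5.16). This ratio, too, was not recomputed with neighbouring peaks joined. Within 100 kb upstream the classes held 1, 3 and 5 peaks (100, 75 and 100 per Mb). From 100 kb outward, upstream density was lower farther out, at 107 per Mb (interval 61.0 to 173) between 100 and 250 kb, 72.0 (interval 42.7 to 114) between 250 and 500 kb and 40.2 (interval 29.8 to 53.0) beyond 500 kb. The longest stretch without H3K27ac, chr11:111275360-111384066, was 109 kb long and ended 1260 kb upstream of the gene. Of all gaps between H3K27ac peaks, 1.29% were at least as long. Between 50 and 500 kb downstream the order was the opposite: 100 per Mb (interval 32.5 to 233) between 50 and 100 kb, 193 (interval 129 to 278) between 100 and 250 kb and 268 (interval 208 to 340) between 250 and 500 kb. Neighbouring classes had overlapping intervals on both sides.

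Most of the downstream mark lay in 1 stretch from 200 to 450 kb past the gene, whose limits were set after the counts were seen. Its 84 H3K27ac peaks were 39.8% of those of the window in 250 kb, and their 35.2 kb were 53.6% of the window's covered bases. Of the 12 peaks of at least 1000 bases in the Sox9 window (5.69% of its peaks, against 1.91% of all), 9 lay in this stretch and the other 3 at the gene. The widest of the window, chr11:112961675-112964490, measured 2816 bases and lay 314 kb downstream. It belonged to the domain chr11:112960475-112968214, in which 5 peaks covered 6.61 kb, close to the 6.705 kb of the domain at the gene, and 0.616% of all domains had at least that much. The peak chr11:112921433-112923169 (1737 bases) lay 273 kb downstream. Without the stretch, downstream density was still 1.87 times that upstream (interval 1.20 to 2.85). In the gene table, the non-coding genes Gm11681, Gm30562, 1700012H19Rik, Gm46301 and 2610035D17Rik follow Sox9 on this side before the protein-coding gene Slc39a11, a zinc transporter, and Kcnj2, a potassium channel gene, is the first named protein-coding neighbour on the other side apart from the predicted gene Gm11677.

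**Figure D3:**
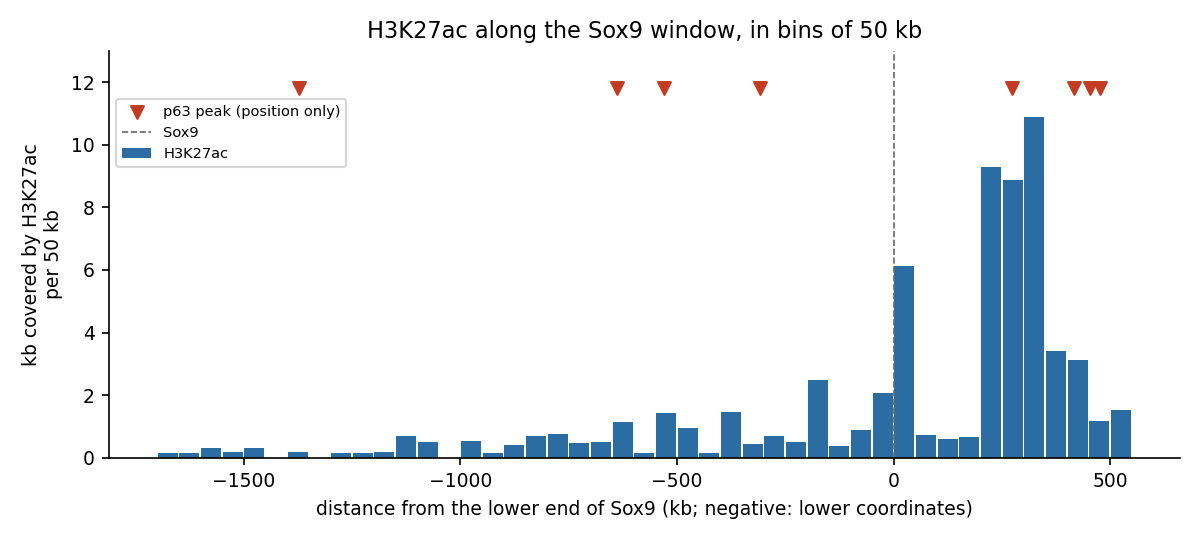
Bases covered by H3K27ac (kb) in bins of 50 kb along the Sox9 window, by distance from the lower end of the gene, with p63 peaks as red triangles that have no height. The bin that starts at the gene holds 6.14 kb, the bin from 300 to 350 kb holds the most, 10.9 kb, and the upstream bins hold at most 2.50 kb.

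p63 peaks were few in number in all 3 windows, but each window held more per Mb than all chromosomes together. The Sox9 window held 8 (3.48 per Mb, exact Poisson 95% interval 1.5 to 6.85), the Sox2 window 2 (3.33 per Mb, interval 0.404 to 12.0) and the Sox10 window 3 (15.0 per Mb, interval 3.09 to 43.8). The density over all chromosomes was 1.61 per Mb, which is inside the intervals of Sox2 and Sox9 and below that of Sox10. Their own chromosomes had 1.55 (chromosome 3), 2.30 (chromosome 11) and 1.94 per Mb (chromosome 15). Against these, Sox2 stood at 2.15 times, Sox9 at 1.51 times and Sox10 at 7.72 times, and again only the interval of Sox10 lay above its chromosome. Sox10 against Sox9 gave a ratio of 4.31 (exact 95% interval 0.737 to 18.0) and Sox10 against Sox2 4.50 (interval 0.515 to 53.9), and both include equal density, as did Sox9 against Sox2 at 1.04 (interval 0.208 to 10.1). At least 3 p63 peaks were found in 2.15% of windows of 200 kb (median 0). At least 8 were found in 12.4% of windows of 2300 kb (median 3) and at least 2 in 24.2% of windows of 600 kb (median 0). Within 100 kb of the gene there were 3 p63 peaks at Sox10 and 0 at Sox9 and at Sox2, where the exact Poisson intervals reach up to 18.0 and 18.4 per Mb.

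At Sox10 all 3 p63 peaks lay below the gene, on the side with the dense H3K27ac. The nearest, chr15:78939346-78939559 (214 bases), was 45.5 kb away and lay wholly inside the widest H3K27ac peak of the window, the one of 2198 bases. Within 5 kb of it 5 H3K27ac peaks covered 3778 bases, where the median over all p63 peaks was 2 H3K27ac peaks and 632 bases. The p63 peak chr15:78928198-78928353 (156 bases) shared 54 bases with an H3K27ac peak of 604 bases and lay 11 kb from the nearest one. The third, chr15:78901650-78901837 (188 bases), was 83.3 kb from the gene and missed the closest H3K27ac peak by 1405 bases.

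At Sox9, 4 p63 peaks lay on each side, all at more than 260 kb. The only one that met H3K27ac was chr11:112918224-112918414 (191 bases), 269 kb downstream in the densely marked stretch. It lay wholly inside an H3K27ac peak of 808 bases, with 7 H3K27ac peaks and 4037 bases covered within 5 kb. Farther downstream, chr11:113097884-113098171 (288 bases) missed an H3K27ac peak by 6 bases, chr11:113121135-113121284 (150 bases) by 48 bases and chr11:113060100-113060254 (155 bases) by 585 bases. Over all p63 peaks the median gap to H3K27ac was 139 bases, and 34.8% shared a base with it. Lying beside a called H3K27ac peak thus does not set these downstream sites apart.

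Upstream of Sox9 no p63 peak shared a base with H3K27ac. The widest p63 peak of the 3 windows, chr11:112114370-112114681 (312 bases), lay 529 kb upstream and missed an H3K27ac peak of 184 bases by 48 bases. The others, chr11:112334666-112334824 (159 bases), chr11:112005754-112005892 (139 bases) and chr11:111270912-111271116 (205 bases), were 309, 638 and 1373 kb upstream, with their closest H3K27ac peaks 2.22, 3.57 and 4.07 kb away. Within 5 kb these 4 sites had from 150 to 607 bases covered by H3K27ac, below the median of 632 over all p63 peaks. The 3 downstream sites that missed H3K27ac were also below it, at 491, 481 and 520 bases, so this does not separate the sides.

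At Sox2 the nearest p63 peak, chr3:34672827-34672991 (165 bases), was 124 kb above the gene and 2.65 kb from an H3K27ac peak of 150 bases. The other, chr3:34785384-34785525 (142 bases), was 236 kb above and missed an H3K27ac peak of 205 bases by 52 bases. Both were narrower than the median p63 peak of 181 bases.

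In all, 3 of the 13 p63 peaks (23.1%, exact binomial 95% interval 5.04 to 53.8%) shared a base with H3K27ac, against 34.8% of all p63 peaks. They were 2 of 3 at Sox10, 1 of 8 at Sox9 and 0 of 2 at Sox2. With H3K27ac within 1000 bases counted, it was 8 of 13 (61.5%, interval 31.6 to 86.1%), against 68.4% of all. Both shares of all p63 peaks lie inside these intervals, so 13 sites do not set the SOX windows apart in this respect. Seen from H3K27ac, 2 of 61 peaks at Sox10, 1 of 211 at Sox9 and 0 of 36 at Sox2 shared a base with p63, against 0.839% of all H3K27ac peaks.

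**Figure D4:**
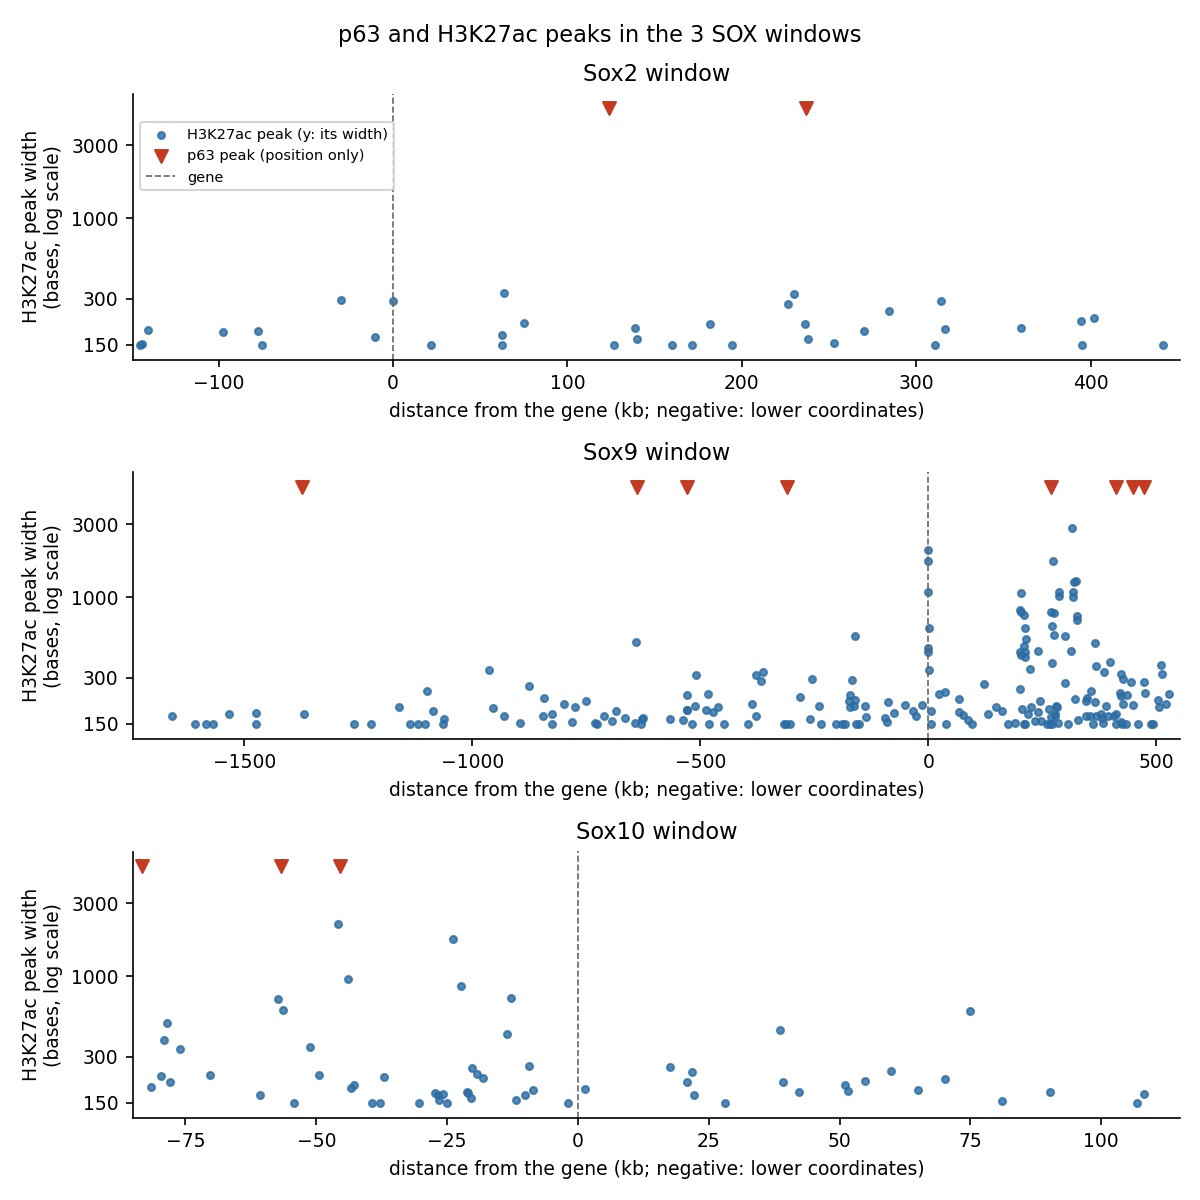
All H3K27ac peaks of the windows (blue points, width in bases on a log axis) and p63 peaks (red triangles, position only) by distance in kb from Sox2, Sox9 and Sox10 (dashed line); the panels have different distance scales. Peaks above 1000 bases stand at Sox9 and 200 to 450 kb above it, and at 45.8 and 23.9 kb below Sox10, while no peak of the Sox2 window is wider than 325 bases.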

How the data were processed

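The data are 2 deposited peak lists with chromosome, start and end, 1 ChIP library against 1 input each, per the labels. The submitters' processing notes name Bowtie 1.1.1, MACS2 2.1.0 and mm9; their settings, the threshold for a peak and the treatment of duplicate reads are unknown here. The lists hold no score, height or read number, so peak number and width also move with depth and threshold. On chromosome 7, 1072 H3K27ac peaks start beyond every gene of the GRCm38 annotation, which was therefore used for names and gene order only. Starts are printed counted from 1. Peaks belong to a window by midpoint; distance is from midpoint to gene; a domain is a run of at least 2 H3K27ac peaks with gaps of up to 1000 bases. Whole-genome densities and equal-size windows use the part of each chromosome between its outermost peaks (2568 Mb in all), without removing unmappable sequence. Intervals are exact Poisson, binomial and conditional 95% intervals; no p-value was computed. Peak sequences were not analysed here. The genes, windows and measures were chosen with earlier results of these data known. Named are all p63 peaks and, per window, the 3 nearest and 3 widest H3K27ac peaks, those within 10 kb of the gene, the 2 fullest domains and the longest empty stretch (not described for Sox10, where it was 16.5 kb). Counting was tested on simulated peaks. Python 3.11.15, numpy 2.4.6, scipy 1.17.1 and matplotlib 3.10.9 were used.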

Additional observations from a re-analysis of the deposited data

How the results depend on the processing

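Of 88 alternatives to 24 results, 62 left a value inside its counting interval, within 1.5 times (coverage and domain numbers) or with an interval that still excluded equal density (ratios between windows), and 26 did not. The 62 are a weak measure of stability, because some alternatives could hardly leave so wide an interval. At Sox2 the share of p63 peaks meeting H3K27ac went from 0 to 50% and stayed inside its interval (0 to 84.2%). Counting peaks by any base shared with the window changed no count. No alternative changed the order of the 3 windows in H3K27ac density. Within 100 kb of the gene p63 was 0 per Mb at Sox2 and Sox9, and H3K27ac at Sox9 was 122 per Mb with 4.87% covered. With only peaks at or above the median width, p63 at Sox2 was 0 per Mb, and H3K27ac was 23.3 at Sox2, 46.1 at Sox9 and 165 per Mb at Sox10. Without peaks of the smallest width, H3K27ac was 41.7 at Sox2 and 73.5 per Mb at Sox9. With peaks joined at 1000 bases it was 55 at Sox2, 63.5 at Sox9 and 160 per Mb at Sox10, and Sox9 over Sox2 went from 1.53 to 1.15 with an interval (0.787 to 1.74) that includes equal density. Counting H3K27ac within 1000 bases took the share of p63 peaks at Sox9 from 12.5 to 62.5%. Joining at 12.5 kb gave 9 domains at Sox2 (from 2) and 3 at Sox10 (from 11). These settings remove or merge peaks, or narrow the window, by construction.

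The ratios between windows under these settings and the following were chosen after seeing the data. H3K27ac coverage next to the gene was 2.92% at Sox2 and 45.3% at Sox9 within 5 kb, and 16.1% at Sox9 and 7.38% at Sox10 within 20 kb. With the gene position moved by 10 kb to higher coordinates it was 0% at Sox2 and 2.22% at Sox10. Moved to lower ones, it was 2.31% at Sox2 and 12.5% at Sox10. At Sox10, coverage near the gene therefore depends on where the gene is placed, and at 3 of the 4 settings other than the first it moved by over 1.5 times. At Sox9 the ratio of downstream to upstream H3K27ac density was 2.51 within 500 kb and 1.87 without the stretch from 200 to 450 kb.

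With 1 library in every group, replicates could not be compared. No paired analysis was possible because there are no replicate numbers. The depth of the lists is unknown, so a site without a called peak is not shown to lack p63 or acetylation. With 13 p63 peaks, differences between the windows in p63 were not detectable.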
